A study of Mus musculus with 9 samples.

Results

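The expression of 10 heat shock protein genes was examined in sorted splenic B cells of C57BL6 mice: Hspa8, Hspa1a, Hspa1b, Hsph1, Dnajb1, Hsp90aa1, Hspd1, Hspe1, Hspb1 and Hsf1. They were chosen by gene symbol from the 24346 genes listed, and all 10 had a value in every library. RNA-seq values were available for 9 libraries, 3 each of follicular B cells of 8-week-old mice, called FO B (Young), follicular B cells of 50-week-old mice, called FO B (Aged), and age-associated B cells of 50-week-old mice, called ABCs (Aged). The sort gate of FO B cells included B220hi, CD43-, CD23+ and CD21lo, and that of ABCs included B220hi, CD43-, CD23-, CD21lo, CD11b+ and CD11c+, so Fcer2a (CD23), Itgam (CD11b) and Itgax (CD11c) differ between them by the gate. ABCs of young mice were not analysed here. In such bulk libraries, fewer cells that use a gene and less RNA of it per cell cannot be told apart. Levels are given in FPKM, which scales the fragments of a gene by its transcript length and by the size of the library and so allows genes to be compared per length.

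Heat shock proteins are chaperones that keep other proteins folded. HSP70 proteins bind unfolded stretches with the help of J-domain partners such as Dnajb1 and of HSP110 exchange factors such as Hsph1, HSP90 matures signalling proteins, HSP60 (Hspd1) with its lid HSP10 (Hspe1) folds proteins inside mitochondria, and small heat shock proteins such as Hspb1 hold unfolded proteins. Some of these genes are always on, whereas Hspa1a, Hspa1b and Hspb1 are known for steep induction when heat or unfolded protein frees the transcription factor HSF1, which binds repeats of GAA and TTC in promoters; B cells that secrete antibody depend in addition on the chaperones of the endoplasmic reticulum (ER).

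The promoters of the inducible pair are shown first, since the 2 genes are nearly one sequence and their reads are hard to assign. Hspa1a (GRCm38 chr17:34969190-34972156, minus strand) and Hspa1b (chr17:34956436-34959238, minus strand) lie 9951 bases apart. Their RefSeq promoter windows of 300 bases (GRCm38.p6, 250 before and 50 after the start) differed at 4 positions, an identity of 98.67%. The 130 bases before the start differed at 1 position and are printed below for Hspa1a (chr17:34972157-34972286, minus strand) and Hspb1 (chr5:135887789-135887918, plus strand). Capitals mark GAANNTTC, an inverted pair of the units that HSF1 binds.
Hspa1a: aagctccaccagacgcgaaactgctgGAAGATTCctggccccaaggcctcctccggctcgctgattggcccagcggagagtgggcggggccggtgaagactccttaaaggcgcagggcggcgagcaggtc
Hspb1: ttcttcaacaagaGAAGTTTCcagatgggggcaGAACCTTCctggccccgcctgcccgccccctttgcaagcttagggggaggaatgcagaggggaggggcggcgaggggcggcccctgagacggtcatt

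Hspd1 and Hspe1 are neighbours that run in opposite directions on chromosome 1 (Hspd1 at chr1:55077835-55088243, minus strand; Hspe1 at chr1:55088132-55091307, plus strand) and overlap at their starts. The strand of counting is not given in the sources used here, so reads of the overlap cannot be assigned to either gene. A run of 4 units lies in a first exon of an annotated Hspd1 transcript and upstream of Hspe1, shown on the plus strand (chr1:55088053-55088082), and Hsph1 (chr5:149614287-149636376, minus strand) has a run of 3 units beside its start (chr5:149636287-149636309).
Hspe1 and Hspd1: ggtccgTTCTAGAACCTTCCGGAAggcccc
Hsph1: tgctgcagaTTCTGGAAAGTTCt

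The pair GAANNTTC or TTCNNGAA, each its own reverse complement and so read on both strands at once, was found in a window of 6 of the 7 heat shock genes that had one, against 16.97% of the 27025 genes with a window (15.06% of all 32851 windows). A run of 3 units (GAANNTTCNNGAA or TTCNNGAANNTTC, which contains the pair) was found for Hsph1, Hspd1 and Hspe1, against 0.662% of genes (0.603% of windows). These genes are not separate cases: Hspd1 and Hspe1 share 1 site, and the Hspa1a and Hspa1b promoters are nearly the same. Dnajb1 (chr8:83608193-83612653, plus strand) held neither in its windows. Matches are a description of the letters and not of binding. Hsp90aa1 (chr12:110690605-110702728, minus strand), Hspa8 (chr9:40800984-40810087, plus strand) and Hsf1 (chr15:76477422-76501913, plus strand) had no window in the table.

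The gate genes Fcer2a, Itgam and Itgax followed the sort, while several other markers also differed between ABCs and FO B cells. The B lineage marker Cd79a had a mean of 3359 FPKM in FO B (Young), 3168 in FO B (Aged) and 3092 in ABCs, and Cd79b and Ms4a1 did not pass between ABCs and FO B (Aged) either (limma FDR = 0.168 and 0.154). Pax5 (20.3 ± 1.34 against 29.6 ± 2.96 FPKM, limma FDR = 0.00625) and Ebf1 (41.7 ± 10.6 against 69.2 ± 5.53 FPKM, FDR = 0.0123), transcription factors of the B lineage, were lower in ABCs than in FO B (Aged). Itgax and Itgam were at 50.7 ± 7.90 and 55.1 ± 9.82 FPKM in ABCs (SD, n = 3) and under 1 FPKM in both FO B groups. Fcer2a (CD23) fell from 714 FPKM in FO B (Aged) to 3.86 in ABCs. Cr2 (CD21) also fell, from 151 to 4.69 FPKM (limma FDR = 0.000636), although both gates were CD21lo. The summed T cell list did not exceed 0.687 FPKM in any library. The neutrophil list summed to 0.987 to 21.3 FPKM in FO B (Aged), up to 7.14 in FO B (Young) and up to 0.359 in ABCs. S100a9 of that list was lower in ABCs than in FO B (Aged) (0.120 against 3.18 FPKM, limma FDR = 0.0210), and S100a8 did not pass (FDR = 0.218). The macrophage and monocyte list summed to 198 to 241 FPKM in ABCs against 9.60 to 26.1 FPKM in FO B cells, most of it Adgre1 at a mean of 198 FPKM. Cd68 (10.7 against 4.17 FPKM, limma FDR = 0.0155) and Ms4a7 (2.995 against 0.606 FPKM, FDR = 0.00276) were also higher in ABCs than in FO B (Aged), Lyz2 did not pass (FDR = 0.614), and Csf1r, Mertk, Cd14 and C1qa had a mean under 1 FPKM in every group. The NK list was at 24.4 to 37.98 FPKM in ABCs, nearly all Prf1, with Klrb1c, Klrk1, Ncr1 and Gzma under 1 FPKM in every group, and the plasma cell list was at 191 to 225 FPKM in ABCs against 110 to 148 FPKM in FO B cells. Within that list Jchain (38.2 against 5.93 FPKM, limma FDR = 0.0188), Sdc1 (15.8 against 3.11 FPKM, FDR = 0.0142) and Prdm1 (4.46 against 0.378 FPKM, FDR = 0.00119) were higher in ABCs than in FO B (Aged), while Xbp1 (134 against 114 FPKM, FDR = 0.0840) and Irf4 did not pass. The part of these cells or genes in the results below was not tested. Approximate depths, read from the size of 1 read in low values, were 7.33e+06 to 8.91e+06 mapped reads.

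Before the comparisons, 1 feature of the libraries has to be stated, which was noticed after the values were seen. Replicate 2 had the lowest value of its group for 7 of the 7 heat shock genes above 1 FPKM in FO B (Aged), where 35.0% of all 10375 genes had their lowest value in that library. In ABCs it was lowest for 6 of the 7, with Hsf1 the exception, against 33.2% of all genes. It was lowest in both aged groups for 6 of the 7 genes, against 14.0% of all genes. In FO B (Young) it was lowest for 4 of 7, against 30.6%. The other chaperones shared the feature in part: replicate 2 was lowest for 44 of 67 companion chaperone genes in FO B (Aged) and for 41 of 67 in ABCs, among them 8 of 8 and 7 of 8 subunits of TRiC, the chaperonin of the cytosol that folds actin and tubulin. Replicate 2 was the shallowest library of FO B (Young), at about 7.92e+06 reads. It was the deepest library of both aged groups, at about 8.91e+06 and 8.17e+06 reads, and the part of depth was not tested. Each comparison is therefore also given with 1 of these libraries left out at a time. No fit left out both.

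**Figure D1:**
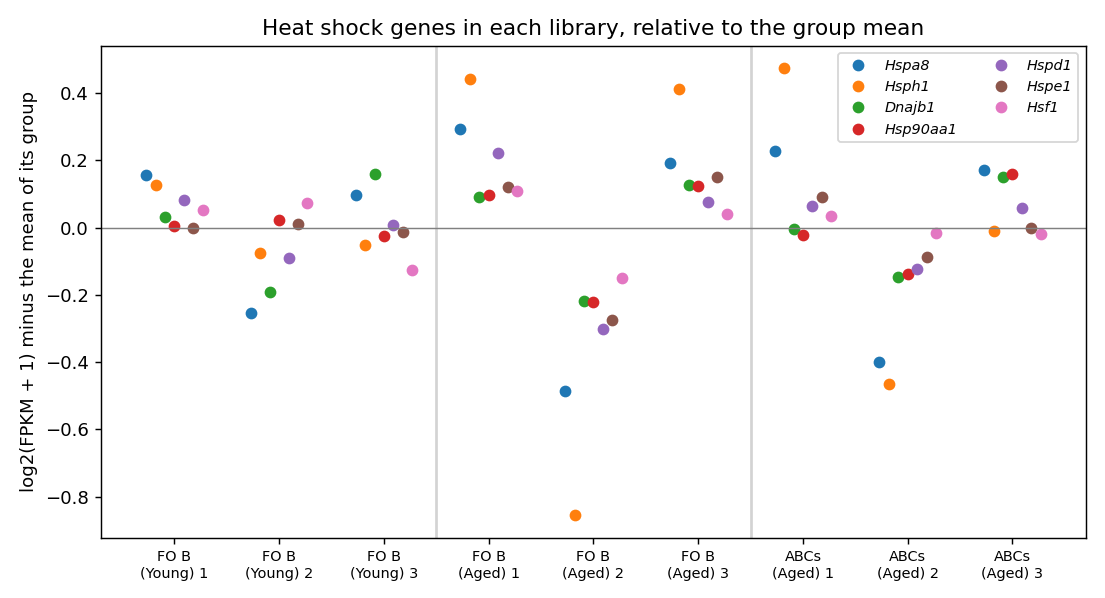
Each point is a heat shock gene in 1 library, as log2(FPKM + 1) minus the mean of its group (vertical axis), with the 9 libraries along the horizontal axis. All 7 points lie below 0 in FO B (Aged) replicate 2 and in ABCs (Aged) replicate 2, with Hsph1 and Hspa8 lowest.

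The levels of the 10 genes fell into a wide range. Hspa8, which encodes the constitutive HSP70 of the cytosol (HSC70), led with 708 ± 104 FPKM in FO B (Young), 1386 ± 372 in FO B (Aged) and 1148 ± 255 in ABCs (SD, n = 3), and stood, among genes of at least 1 FPKM in the group, above 98.6% in FO B (Young) and 99.3% in both aged groups. Hspa8 alone made up 62.0 ± 3.34%, 71.9 ± 2.49% and 71.6 ± 3.33% of the summed FPKM of the 10 genes in these groups. Next came Hspe1 and Hsp90aa1 between 105 and 173 FPKM, then Hspd1 between 65.6 and 114 FPKM, and then Hsf1, Dnajb1 and Hsph1 between 18.2 and 57.2 FPKM over all libraries. Hspe1, Hsp90aa1 and Hspd1 overlapped with their neighbour in this order over the libraries, as did Dnajb1, Hsf1 and Hsph1 among themselves. Hspb1, Hspa1b and Hspa1a stayed at or below 1.06 FPKM in every library. The constitutive HSP90 gene Hsp90ab1, a companion gene, was above its inducible relative Hsp90aa1 in every library, with ratios of 5.08 ± 0.396 in FO B (Young), 4.82 ± 0.421 in FO B (Aged) and 4.93 ± 0.487 in ABCs.

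**Figure D2:**
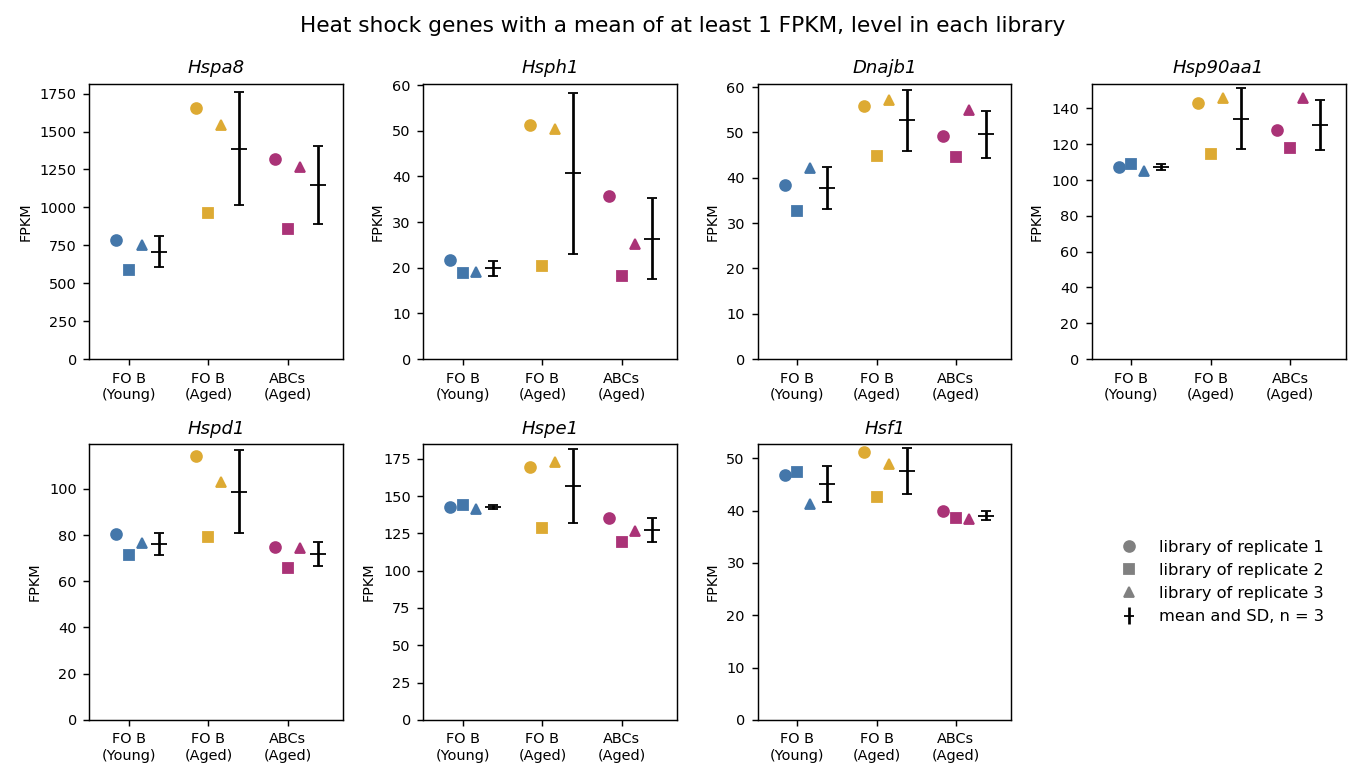
FPKM (vertical axes, from 0) of the 7 heat shock genes above 1 FPKM in each library of FO B (Young), FO B (Aged) and ABCs (Aged), with symbols for replicates 1 to 3 and bars for the mean and SD of 3 libraries. Hspa8 ranges from 589 to 1655 FPKM, and the squares of replicate 2 are the lowest points of FO B (Aged) in all 7 panels.

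The first comparison asked whether the heat shock genes of FO B cells differed with the age of the mouse. Hspa8 was at 783, 589 and 751 FPKM in replicates 1 to 3 of FO B (Young) and at 1655, 962 and 1541 FPKM in FO B (Aged). The groups did not overlap, and the aged value was 1.96-fold the young one. The log2 fold change of FPKM + 1 was 0.94 ± 0.20 (standard error), but limma's FDR over all genes was 0.109. Hsph1, the HSP110 exchange factor, was at 21.7, 18.8 and 19.1 FPKM in FO B (Young) and at 51.4, 20.3 and 50.3 FPKM in FO B (Aged). Replicates 1 and 3 of the aged group were thus far above every young library and replicate 2 was within the young range, and the fold change was 0.89 ± 0.31 on the log2 scale (limma FDR = 0.271).

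Dnajb1, the J-domain partner of inducible HSP70, was at 38.4, 32.7 and 42.1 FPKM in FO B (Young) and at 55.8, 44.9 and 57.2 FPKM in FO B (Aged), with no overlap (log2 fold change 0.47 ± 0.12, limma FDR = 0.154). Hsp90aa1, the inducible HSP90, was at 107, 109 and 105 FPKM in FO B (Young) and at 143, 115 and 146 FPKM in FO B (Aged), again with no overlap (0.32 ± 0.090, limma FDR = 0.190). Both therefore sat higher in every aged library without passing the threshold. Of the mitochondrial genes, Hspd1 gave 0.36 ± 0.12 (limma FDR = 0.273) and Hspe1 0.12 ± 0.11 (limma FDR = 0.684). Hsf1, the transcription factor of the heat shock response, was at 46.8, 47.4 and 41.2 FPKM in FO B (Young) and at 51.2, 42.7 and 48.8 FPKM in FO B (Aged), which overlapped (0.073 ± 0.087, limma FDR = 0.788).

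By limma, 0 of the 7 heat shock genes passed an FDR of 0.05 between aged and young FO B cells, where 0.464% of the 10122 genes tested did (0.346% higher and 0.119% lower). At an unadjusted p under 0.05 there were 5 of the 7, all higher with age (Hspa8, Hsph1, Dnajb1, Hsp90aa1 and Hspd1), against 1298 genes or 12.8% of all genes tested. Hspa8, Dnajb1 and Hsp90aa1 did not overlap between the groups, and 9.64% of all genes were higher without overlap (8.96% lower). All 7 fold changes were positive, with a median of 0.36 on the log2 scale against 0.0018 over all genes, although Hspe1 and Hsf1 turned negative (-0.0071 and -0.054) when libraries were scaled to their upper quartile, a scaling that moved the median of all genes to -0.12. Relative to that median, both stayed positive at 0.11 and 0.065.

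Without replicate 2 of FO B (Aged), 4 of the 7 genes passed: Hsph1 (1.32 ± 0.085, limma FDR = 0.00190), Hspa8 (1.18 ± 0.12, FDR = 0.0113), Hsp90aa1 (0.43 ± 0.053, FDR = 0.0249) and Hspd1 (0.51 ± 0.076, FDR = 0.0427). In that fit 48 of all genes were called higher. This library had been singled out as the lowest for all 7 genes, so leaving it out raises their aged means by construction. Each of the 4 genes was called in only 1 of the 6 fits that left out a library. The library was kept in the reported test because nothing in its labels sets it apart. An exact permutation test of 3 against 3 libraries cannot go below p = 0.1, which Hspa8, Dnajb1 and Hsp90aa1 reached.

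The second comparison asked how ABCs differed from FO B cells of mice of the same age. It used the same FO B (Aged) libraries as the comparison by age, so neither is separate evidence from the other. Of the 7 genes tested, 2 were lower in ABCs and 0 were higher, where limma called 16.5% of the 10412 genes lower and 19.4% higher (35.9% in either direction), so the share of the heat shock genes called lower rests on 2 genes. At an unadjusted p under 0.05 there were 3 of 7 genes, all lower (Hspd1, Hsf1 and Hspe1), against 46.7% of all genes tested. Hspd1, the mitochondrial HSP60, was at 114, 79.1 and 103 FPKM in FO B (Aged) and at 74.8, 65.6 and 74.5 FPKM in ABCs. Every ABC library was below every FO B (Aged) library, as in 26.3% of all genes (another 26.3% were higher without overlap), and the difference was -0.44 ± 0.14 on the log2 scale (limma FDR = 0.0400). Hsf1 was at 40.0, 38.6 and 38.5 FPKM in ABCs, all below the 42.7 to 51.2 FPKM of FO B (Aged), a difference of -0.28 ± 0.084 (limma FDR = 0.0380).

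Both calls stood close to the threshold, and leaving out FO B (Aged) replicate 1 or 3, or ABCs replicate 1 or 2, left 0 of the 7 genes called (FDR of up to 0.121 for Hspd1 and 0.126 for Hsf1), while leaving out FO B (Aged) replicate 2 gave 4, with Hspe1 and Hsph1 added. Leaving out ABCs replicate 3 kept only Hspd1. With libraries scaled to the upper quartile, 0 were called, and over all genes the calls moved from 2020 higher and 1719 lower to 2459 higher and 603 lower.

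Hspe1, the HSP10 partner of Hspd1, was at 169, 129 and 173 FPKM in FO B (Aged) and at 135, 120 and 127 FPKM in ABCs, which overlapped (-0.29 ± 0.12, limma FDR = 0.102). The ratio of Hspe1 to Hspd1 was 1.88 ± 0.126 in FO B (Young), 1.60 ± 0.10 in FO B (Aged) and 1.78 ± 0.0656 in ABCs (SD, n = 3). Hsph1 was at 35.7, 18.2 and 25.3 FPKM in ABCs, which overlapped the FO B (Aged) values (-0.54 ± 0.38, limma FDR = 0.301). Hspa8 was at 1320, 855 and 1268 FPKM in ABCs, which overlapped the 962 to 1655 FPKM of FO B (Aged) (-0.26 ± 0.24, limma FDR = 0.435). Dnajb1 (-0.081 ± 0.12, limma FDR = 0.622) and Hsp90aa1 (-0.037 ± 0.12, limma FDR = 0.829) differed by less than their standard errors. All 7 fold changes were negative, with a median of -0.28 against -0.011 over all genes, but Dnajb1 and Hsp90aa1 turned positive under the upper quartile scaling (0.097 and 0.14), which moved the median of all genes to 0.155; relative to it they stayed negative at -0.058 and -0.012.

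**Figure D3:**
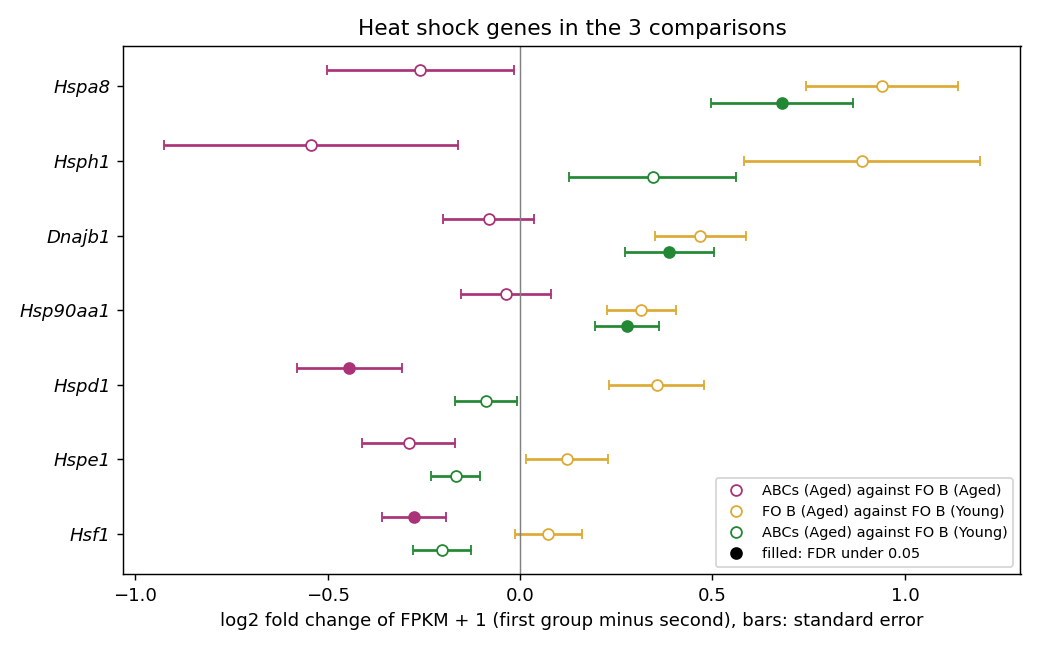
Log2 fold change of FPKM + 1 (horizontal axis, first group minus second) of 7 heat shock genes in the 3 comparisons, with bars for the standard error and filled points for a limma FDR under 0.05. Aged against young FO B values are all above 0 and ABCs against FO B (Aged) values all below 0 on the deposited scale. These comparisons share the FO B (Aged) libraries, so the opposite signs are not separate evidence. Under upper quartile scaling Hspe1 and Hsf1 in the first and Dnajb1 and Hsp90aa1 in the second change sign.

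ABCs were also compared with FO B (Young), which shares its ABC libraries with the comparison above and its young libraries with the comparison by age, so these are not separate evidence. Hspa8 (0.68 ± 0.18, limma FDR = 0.0230), Dnajb1 (0.39 ± 0.11, FDR = 0.0323) and Hsp90aa1 (0.28 ± 0.083, FDR = 0.0333) were higher in ABCs, with no overlap between the 3 and 3 libraries of each gene, as in 27.7% of all genes. These were 3 of the 7 genes tested, and 0 were lower, where limma called 21.6% of the 10438 genes higher and 19.1% lower (40.7% in either direction). At an unadjusted p under 0.05 a further 2 were lower, Hsf1 (-0.20 ± 0.075, FDR = 0.0677) and Hspe1 (-0.17 ± 0.064, FDR = 0.0729), each with all ABC libraries under all young ones, as in 27.6% of all genes. Hspd1 (-0.088 ± 0.080, FDR = 0.408) and Hsph1 (0.35 ± 0.22, FDR = 0.241) overlapped. Hspa8, Dnajb1 and Hsp90aa1 were thus higher in both aged populations than in every young library, whereas Hsf1 and Hspe1 were lower than in every young library in ABCs. The calls also depended on single libraries: without FO B (Young) replicate 2 or ABCs replicate 1 none of the 3 passed, without FO B (Young) replicate 1 only Hspa8 did, without FO B (Young) replicate 3 only Dnajb1 did and Hsf1 was called lower, and without ABCs replicate 2 there were 4, with Hsph1 added (0.58 ± 0.16, FDR = 0.0302). At an FDR of 0.01, 0 of the 7 heat shock genes passed in any comparison, where 23.6% of all genes did here, 19.9% in ABCs against FO B (Aged) and 0.168% in aged against young FO B cells. Upper quartile scaling left Hspa8 alone, and over all genes it moved the calls from 2252 higher and 1996 lower to 1847 higher and 927 lower.

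The strongly inducible genes were close to silent in all 3 groups. Whole reads were derived from the size of 1 read in low values, and only genes whose values fell near whole numbers were read out. The largest deviation from a whole read was 1.2e-05 for Hspa1a and 6.6e-05 for Hspa1b. Hspa1a had 1, 4 and 3 reads in FO B (Young), 0, 2 and 0 in FO B (Aged), and 3, 7 and 2 in ABCs. Hspa1b had 3, 3 and 13 reads in FO B (Young), 16, 9 and 14 in FO B (Aged), and 7, 9 and 9 in ABCs. No library therefore held more than 16 reads of either gene, against a Hspa8 level of at least 589 FPKM. Both had a mean under 1 FPKM and were left out of the main test.

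For Hspa1a the ratio of ABCs to FO B (Aged) was 6.32 with an exact 95% counting interval of 1.41 to 58.2, resting on 12 against 2 reads, and the limma FDR without a filter on low values was 0.136. For Hspa1b the ratio of FO B (Aged) to FO B (Young) was 2.02 (interval 1.14 to 3.70, 39 against 19 reads, limma FDR without a filter = 0.607). These intervals cover counting error only, since reads without molecular identifiers are not independent molecules. The 2 genes cannot be told apart over much of their length: 46.9% of the windows of 1 read length in the longest transcript of Hspa1a also occurred in Hspa1b. Their sum was 0.392 ± 0.272 FPKM in FO B (Young), 0.597 ± 0.164 in FO B (Aged) and 0.554 ± 0.111 in ABCs (SD, n = 3), from 27, 41 and 37 reads. By limma without a filter the sum gave an FDR of 0.740 for aged against young FO B cells, 0.833 for ABCs against FO B (Aged) and 0.506 for ABCs against FO B (Young), so a difference was not detectable at this depth.

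Hspb1, which encodes a small heat shock protein, had 3, 4 and 0 reads in FO B (Young), 1, 1 and 4 in FO B (Aged), and 6, 4 and 2 in ABCs. The groups overlapped, and the ratio of ABCs to FO B (Aged) was 2.11 (interval 0.732 to 6.85). Copies elsewhere in the genome also limit other genes: 63.3% of the read-length windows of Hspa8, 47.3% of those of Hsp90aa1, 42.5% of those of Hspb1, 26.7% of those of Hspd1 and 22.1% of those of Hspe1 occurred in another annotated gene. How such reads were shared is not given in the sources used here. Hsph1, Dnajb1 and Hsf1 had none.

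**Figure D4:**
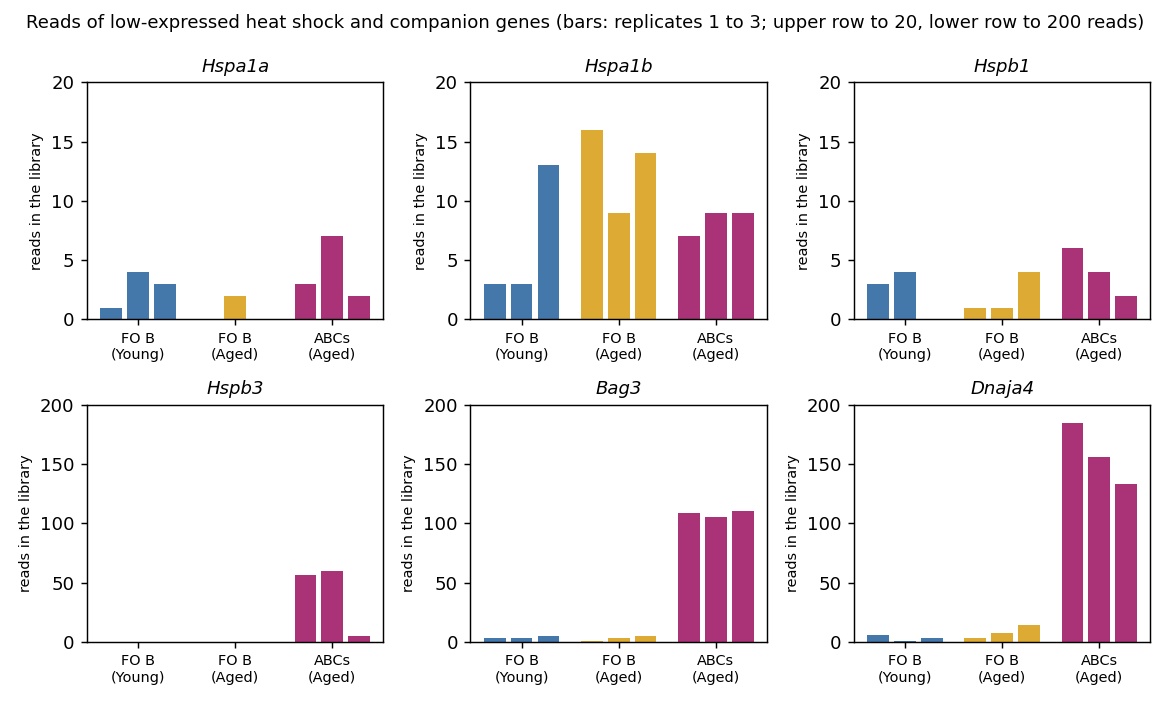
Reads in each library (vertical axes, 1 bar for each of replicates 1 to 3) of Hspa1a, Hspa1b and Hspb1 (upper row, axis to 20 reads) and of the companion genes Hspb3, Bag3 and Dnaja4 (lower row, axis to 200 reads). The upper genes stay at or below 16 reads in every group, while Bag3 has 105 to 110 reads in each ABC library and at most 5 in any FO B library.

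The rest of the chaperone network was read from 77 companion genes in 9 lists. In ABCs against FO B (Aged), 67 of them were tested, with 9 higher and 8 lower and a median of -0.023 on the log2 scale, against shares of 19.4% and 16.5% over all genes. The filter used the mean of the 6 libraries. Of the 9, Bag3, Dnaja4, Hspb3 and Hspa12a had a mean under 1 FPKM in both FO B groups and passed it only through ABCs. Hspa1l, at 0.265 FPKM in ABCs and 0.814 in FO B (Aged) with no overlap, stayed below the filter and was not tested. Among the companion genes Bag3 and Dnaja4 had the lowest FDR, and Hspb3 had the largest log2 fold change (2.80). Bag3 and Dnaja4 are partners of HSP70, but their lists did not share the rise. Of the 8 J-domain genes 1 was higher, and of the 8 exchange and co-chaperone genes 1 was higher and 2 were lower. Bag3, a nucleotide exchange factor that hands HSP70 clients to autophagy, had 1, 3 and 5 reads in FO B (Aged), 3, 3 and 5 in FO B (Young), and 109, 105 and 110 in ABCs. Its level was 5.34 ± 0.415 FPKM in ABCs against 0.138 ± 0.0926 in FO B (Aged), a ratio from reads of 37.9 (exact 95% counting interval 19.7 to 83.7, limma FDR = 5.64e-05). Dnaja4, a J-domain partner of HSP70, was at 6.66 ± 1.23 FPKM in ABCs against 0.316 ± 0.222 in FO B (Aged), a ratio of 20.8 (interval 13.8 to 32.8, limma FDR = 0.000143). Both genes were still called with any single library left out.

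Hspb3, a small heat shock protein known from muscle, had 56, 60 and 5 reads in ABCs and 0 reads in all 6 FO B libraries. Against a floor of 3 reads per library it was at least 14.2-fold higher in ABCs than in FO B (Aged) (limma FDR = 0.0158), with ABCs replicate 3 far below the other two and a call in 4 of the 6 fits that left out a library (FDR of up to 0.0534, without FO B (Aged) replicate 1). Sites of the pair were found in windows of all 3 genes: for Bag3 after the start (chr7:128523615-128523632, plus strand), for Dnaja4 before one of its starts (chr9:54699459-54699488, plus strand), and for Hspb3 further upstream (chr13:113663877-113663916, minus strand). They are printed because these were the companion genes with the largest fold changes in ABCs.
Bag3: gatgggaccaGAAGTTTC
Dnaja4: gaacctccgcGAACGTTCtgggcctatgtg
Hspb3: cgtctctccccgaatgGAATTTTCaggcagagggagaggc

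Over all companion genes with a window, 17 of 66 held the pair in at least 1 window (25.8%), against 16.97% of all 27025 genes with a window. Among the other HSP70 genes, 3 of 6 tested were higher in ABCs and 0 lower: Hspa12a (6.23 ± 2.995 against 0.808 ± 0.308 FPKM, limma FDR = 0.00235), Hspa13 (6.85 ± 0.670 against 3.28 ± 0.394 FPKM, FDR = 0.00217) and Hspa2 (8.18 ± 2.97 against 3.45 ± 0.166 FPKM, FDR = 0.0121). The most abundant of that list, Hspa14, had a mean of 64.3 FPKM in the ABC libraries and of 62.1 in FO B (Aged). Of the HSP90 group, Ppid, an HSP90 co-chaperone, was lower in ABCs (34.9 against 48.0 FPKM, limma FDR = 0.00219) and the other 10 did not pass. Of the nucleotide exchange and co-chaperone group, Bag3 was higher and Hspbp1 (33.0 against 44.0 FPKM, limma FDR = 0.00430) and Stub1 (106 against 127 FPKM, FDR = 0.0145), a ubiquitin ligase that acts on HSP70 clients, were lower. Stub1 was called in 4 of the 6 fits that left out a library (FDR of up to 0.0516, without FO B (Aged) replicate 1).

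Of the 9 other mitochondrial chaperone and protease genes tested, 3 were lower in ABCs, 0 were higher and 6 did not pass, where 16.5% of all genes were lower: Hspa9, the mitochondrial HSP70, at 62.8, 61.0 and 62.6 FPKM in ABCs against 88.1, 81.3 and 85.2 FPKM in FO B (Aged) (-0.44 ± 0.061, limma FDR = 0.00174), its exchange factor Grpel2 (-0.48 ± 0.12, FDR = 0.0167) and its J-domain partner Dnaja3 (-0.32 ± 0.10, FDR = 0.0423). Hspa9 was still called with any single library left out, at an FDR of at most 0.0114, whereas Grpel2 and Dnaja3 reached 0.0576 and 0.132. Of the 8 TRiC subunits, Cct6a alone was lower (107 against 133 FPKM, limma FDR = 0.0368, and up to 0.120 with a library left out). In the HSF list only Hsf2, a relative of Hsf1, passed, at 1.03 against 2.10 FPKM (limma FDR = 0.0474, and up to 0.141 with a library left out).

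Of the 12 ER chaperones, 3 were higher in ABCs, 0 were lower and 9 did not pass, where 19.4% of all genes were higher: Dnajb9 (45.9 ± 7.57 against 19.9 ± 1.53 FPKM, limma FDR = 0.000754), Herpud1 of the ER degradation machinery (283 ± 55.9 against 145 ± 13.3 FPKM, FDR = 0.00234) and Hsp90b1, the HSP90 of the ER (382 ± 48.5 against 244 ± 32.8 FPKM, FDR = 0.00725). All 3 were still called with any single library left out. Jchain, Sdc1 and Prdm1 of the plasma cell list were higher in ABCs in the same libraries (values with the markers above), and their part in these values was not tested. Against FO B (Young), 7 of the 12 were higher in ABCs, and over the 67 companion genes tested 20 were higher and 8 lower, where 21.6% and 19.1% of all genes were. With age in FO B cells, 1 of 63 companion genes passed, where 0.464% of all genes did, Dnajc3 of the ER (23.9 against 17.7 FPKM, limma FDR = 0.0494), and it was lost whichever library was left out.

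**Figure D5:**
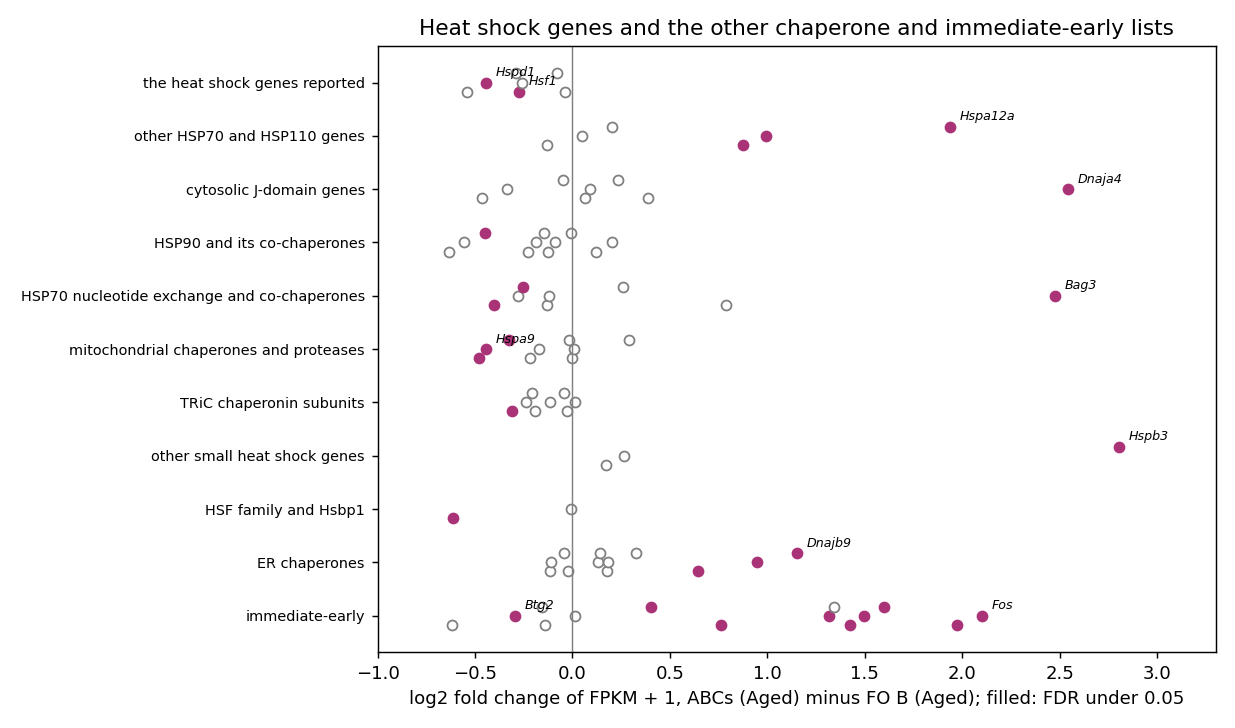
Each point is a gene, with its log2 fold change of FPKM + 1 in ABCs (Aged) minus FO B (Aged) on the horizontal axis and its list on the vertical axis; filled points passed a limma FDR of 0.05. Bag3, Dnaja4 and Hspb3 lie beyond 2.4, the 3 called mitochondrial genes lie below 0, and the 3 called ER genes lie above 0.

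Immediate-early genes, most of them transcription factors that are switched on soon after a cell is stimulated, were examined beside the heat shock genes. Of 14 tested, 8 were higher in ABCs than in FO B (Aged) and 1, Btg2, was lower, where 19.4% and 16.5% of all genes were, with a median of 1.04 on the log2 scale. Jun was at 211 against 78.2 FPKM (limma FDR = 0.000170), Fos at 659 ± 191 against 154 ± 48.7 FPKM (FDR = 0.00200) and Egr1 at 162 ± 67.2 against 38.1 ± 2.80 FPKM (FDR = 0.00219). Between aged and young FO B cells 2 of 13 passed, both higher, where 0.346% of all genes were, Junb (219 ± 30.4 against 122 ± 8.16 FPKM, limma FDR = 0.0118) and Ier2 (214 ± 15.8 against 161 ± 6.77 FPKM, FDR = 0.0494). With 1 library left out, Junb was called in 4 of 6 fits (FDR of up to 0.0684, without FO B (Young) replicate 1) and Ier2 in 1 of 6 (FDR of up to 0.186, without FO B (Young) replicate 2). Replicate 2 was the lowest library for 7 of 13 immediate-early genes in FO B (Young), 5 of 13 in FO B (Aged) and 1 of 13 in ABCs. Over all genes the shares were 30.6%, 35.0% and 33.2%.

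Among themselves, pairs of heat shock genes varied together to different degrees over the 9 libraries. Pearson's r of log2(FPKM + 1), which includes the group differences and is given as a description, was 0.95 for Hspa8 and Dnajb1, 0.91 for Hspa8 and Hsp90aa1, and 0.90 for Dnajb1 and Hsp90aa1. It was 0.89 for Hspd1 and Hspe1, which share their promoter region, and 0.88 for Hspe1 and Hsf1. The lowest pair was Dnajb1 and Hsf1 at -0.023. Pairs between these extremes included Hspa8 and Hspd1 at 0.70, Dnajb1 and Hspd1 at 0.58, Hsp90aa1 and Hspd1 at 0.57, and Hspa8 and Hspe1 at 0.44. Hsph1 was at 0.89 with Hspa8, 0.85 with Hspd1 and 0.52 with Hsf1. Over the 10368 genes searched, those outside the 10 whose pattern was most like Hsph1 were BC017643 (r = 0.96), Cacybp (0.94) and Acat3 (0.93), and those most like Dnajb1 were Rnf115 (0.94), Ppa1 (0.94) and Ahsa1 (0.94), the last an activator of HSP90. For Hspa1a they were Trub2, Edaradd and Tcf3 (0.96 to 0.94) and for Hspa1b Mrps6, 4930594C11Rik and Zfp420 (0.94 to 0.89), on counts of at most 16 reads a library.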

How the data were processed

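Splenic B cells of 9 libraries were measured by RNA-seq. The FPKM values were deposited by the authors for each symbol in each library, and come from SMART-Seq HT cDNA, Nextera libraries and 101-base single-end reads mapped to mm10. The submitters' processing notes name TopHat2 2.1.1, Bowtie2 2.2.8, SAMtools 0.1.18 and Cuffdiff 2.2.1. The gene annotation is not given in the sources used here. Depth was approximated from the FPKM worth of 1 read over annotated transcript lengths.

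Groups and replicate numbers came from the sample titles. Where libraries share a source beyond their group is not stated, so p-values measure the spread between these libraries. log2(FPKM + 1) of the 6 libraries of 2 groups went into limma 3.58.1 under R 4.3.3 (a linear fit with trended eBayes) where the gene's mean reached 1 FPKM, and genes were called at a Benjamini-Hochberg FDR under 0.05 over all genes tested. Fold changes on this scale understate the change of low genes. The procedure was tested on simulated data. An exact permutation test (two-sided, 20 splits) was added for each gene. Positions came from GENCODE M21 (GRCm38) and promoters from RefSeq (GRCm38.p6), which matched 7 of the 10 genes. Python 3.11.15, numpy 2.4.6, pandas 2.3.3, scipy 1.17.1 and matplotlib 3.10.9 were used.

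The 10 genes, the companion lists and the tests were chosen with earlier results of these data known. Named genes were the 10, up to 3 called genes in each direction and the 2 most abundant of each list, and the 3 genes most like Hspa1a, Hspa1b, Hsph1 and Dnajb1. Alternatives were other pseudocounts, filters, scalings, variance settings, fits and thresholds, a replicate block and leaving out each library. Trac, Trbc2 and Ly6g of the marker lists were not analysed here.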

Additional observations from a re-analysis of the deposited data

How the results depend on the processing

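The count of heat shock genes lower in ABCs than in FO B (Aged), 2 in the reported test, fell to 0 with no filter on low values, with upper quartile scaling, with eBayes without a trend and at an FDR of 0.01, and ranged from 0 to 4 with 1 library left out. The count higher in FO B (Aged) than in FO B (Young), 0, ranged from 0 to 4 with 1 library left out. The count higher in ABCs than in FO B (Young), 3, was 0 with no filter and at an FDR of 0.01, 1 with quantile normalization, 1 with upper quartile scaling, and 0 to 4 with 1 library left out; the count lower, 0, was 2 with quantile normalization (Hsf1 and Hspe1) and 0 to 1 with 1 library left out. The cause of these changes was not tested. More genes were tested without a filter, and fewer libraries entered the fits that left 1 out.

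Over all genes, correlations of same-numbered deviations ran from -0.019 to 0.108 for ABCs and FO B (Aged), from -0.092 to 0.138 for aged and young FO B cells, and from -0.042 to 0.030 for ABCs and FO B (Young). Those of differently numbered libraries ran from -0.108 to 0.059, from -0.105 to 0.157 and from -0.059 to 0.031 in the same order. Whether a number marks a shared mouse is not stated, and these values cannot decide it. With a replicate block, 1 gene (Hspa8) was higher in FO B (Aged) than in FO B (Young), against 0 without it, and the counts of the other comparisons stayed within 1.5 times. Of the fold changes of single genes under all alternatives, 260 kept direction and side of the threshold, 12 passed it anew, 36 no longer passed and 7 changed sign. The sign changed for Dnajb1 (0.097) and Hsp90aa1 (0.14) in ABCs against FO B (Aged) and for Hspe1 (-0.0071) and Hsf1 (-0.054) in aged against young FO B cells with upper quartile scaling. It also changed for Hsp90aa1 in ABCs against FO B (Aged) when FO B (Aged) replicate 1 (0.011) or 3 (0.025) or ABCs replicate 2 (0.032) was left out, over a range of -0.15 to 0.032 for single libraries. For the aged and young FO B cells, upper quartile scaling moved the calls over all genes from 35 higher and 12 lower to 24 higher and 27 lower. Depth limits Hspa1a, Hspa1b and Hspb1, with at most 16 reads in a library.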
